A study of Drosophila melanogaster with 24 samples.

Results

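Aminoacyl-tRNA synthetases attach each amino acid to its own tRNA, the step that sets which amino acid a codon brings into a protein. Cells keep separate sets of these enzymes for the cytosol and for the mitochondrial matrix, and in flies the mitochondrial enzymes are encoded in the nucleus and imported. Neurons depend on both sets, since mitochondrial protein synthesis makes subunits of the respiratory chain, and inherited defects in human synthetase genes affect nerves and brain. The genes described here are the 33 of 16995 listed genes whose symbol is 1 or more three-letter amino acid codes followed by RS, with the ending -m for a mitochondrial enzyme, as in *AsnRS*, *GluProRS* and *TyrRS-m*. They comprise 18 cytosolic and 15 mitochondrial genes. The cytosolic set covers 19 amino acids, because *GluProRS* encodes a bifunctional enzyme for glutamate and proline, and the mitochondrial set covers 15, with 14 amino acids in both. Glutamine, glycine, histidine, lysine and threonine had a cytosolic symbol alone. Phenylalanine had a mitochondrial symbol alone, since the cytosolic enzyme is built of the subunits *alpha-PheRS* and *beta-PheRS*, whose symbols lie outside the rule.

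The study asked whether the brains of male and female *Drosophila* respond differently to traumatic brain injury (TBI) when Tau is absent. All flies were *tau*-KO, a strain that lacks exons 2 to 6 of *tau*, so the controls carried the deletion as well, and all were mated adults of 10 to 14 days. Injured flies received a single strike to the whole body in a spring-driven high impact trauma device, so the injury was not restricted to the head. The 8 groups were uninjured controls and brains taken 1, 2 or 4 h after TBI, for males and for females, with 3 libraries in each group and the RNA of a single brain in each library. QuantSeq reads come from the 3′ end of polyadenylated RNA, so that 1 read stands for about 1 transcript and levels in counts scaled to library size (CPM) can be set side by side between genes without division by length. In brain RNA as a whole, fewer cells of a type and less RNA per cell cannot be told apart.

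Counts in genes ran from 117416 to 1880528 per library with a median of 772916.5, and 1 count was worth 0.546 to 7.04 CPM. The synthetase genes took 49 to 1705 counts per library for the cytosolic set and 16 to 416 for the mitochondrial set, and 17 to 29 of the 33 genes had a count in a library. A deletion of inner exons of *tau* cannot be checked with reads from its 3′ end. All 9 neuron markers had counts in every group, with a sum of 1307 to 4101 CPM per library. Male control 2 and male 1 h 2 stood apart, with correlations across 2362 genes of 0.714 and 0.691 with the mean of the other libraries, against 0.871 to 0.975 for the other 22. In them the summed level of 7 muscle markers was 269.7 and 291 CPM, against 2514 to 3777 CPM elsewhere, and neuron markers were at 1307 and 1582 CPM, against 2278 CPM or more elsewhere. They also differed from each other. Male 1 h 2 had the highest sum of 8 photoreceptor markers (16385 CPM, against 8955 CPM in male control 2). Male control 2 had the highest sum of 8 glia markers (2464 CPM, against 2017 CPM in male 1 h 2). Female control 2 carried 5653 CPM of 7 antenna markers and 19946 CPM of 6 fat body markers, the highest of all libraries for each list. Of the 25 tested synthetase genes, 14 (56%) had their highest level in male control 2 or male 1 h 2, against 28.9% of all tested genes. Where leaving out one of these libraries ended a call made with all libraries, the value or range without it is given. Some medians of a set and some genes called only without these libraries are given as well. The part of their cell composition in the results was not tested.

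*PheRS-m*, which charges phenylalanine in mitochondria, was the most abundant synthetase transcript. Over the 24 libraries it averaged 116 CPM with a range of 66.6 to 188 CPM, was the highest of all members in 20 libraries and the highest of the mitochondrial set in all 24, and lay above 84.7% of tested genes. In males it stood at 70.4, 93.7 and 188 CPM in controls, at 129, 66.6 and 86.3 CPM at 1 h, at 84.7, 172 and 71.8 CPM at 2 h and at 104, 151 and 126 CPM at 4 h post-TBI. Females had 119.9, 86.9 and 135 CPM in controls, 124, 143 and 126 CPM at 1 h, 107, 104 and 122 CPM at 2 h and 123, 118 and 132 CPM at 4 h. The groups overlapped at every time in both sexes, with log2 fold changes (log2 FC) between −0.35 and 0.21 over the 6 comparisons with control and a median SE of 0.40, and its replicates varied by a median coefficient of variation (CV) of 20.1%, against 29.2% for the 200 tested genes nearest in level.

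The cytosolic set was led by *LysRS* (58.6 CPM), *LeuRS* (56.2 CPM) and *ThrRS* (54.4 CPM), which charge lysine, leucine and threonine. *LysRS* ranged from 29.4 to 124 CPM and *LeuRS* from 22.5 to 86.9 CPM. *ThrRS* ranged from 17.7 to 159 CPM. Behind them came *IleRS* (48.2 CPM) for isoleucine and *HisRS* (45.3 CPM) for histidine. The highest cytosolic gene of a library was *LeuRS* in 7 libraries, *LysRS* in 6, *IleRS* and *ThrRS* in 5 each and *HisRS* in 1, so these 5 genes had no fixed order. A step followed, since *HisRS* lay above *TyrRS*, the tyrosine enzyme, in 22 of 24 libraries, as did *PheRS-m* above *LysRS*. Every other pair of neighbours among the tested genes was in its mean order in 8 to 16 of 24 libraries, which sets no order between them. In the middle range were *TyrRS* (25.6 CPM), *SerRS* (24.5 CPM), *LeuRS-m* (24.5 CPM), *GlyRS* (23.8 CPM), *TrpRS* (23.1 CPM) and *IleRS-m* (22.5 CPM). *GlnRS* followed at 17.4 CPM, *AsnRS* at 14 CPM, *AlaRS-m* at 13.3 CPM and *GluProRS* at 10.5 CPM. Below 10 CPM were *MetRS* (9.73), *AlaRS* (8.27), *AspRS-m* (7.78), *TrpRS-m* (7.56), *TyrRS-m* (6.27), *MetRS-m* (5.30), *ArgRS* (3.87), *ValRS* (2.96) and *CysRS-m* (2.25 CPM).

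**Figure D1:**
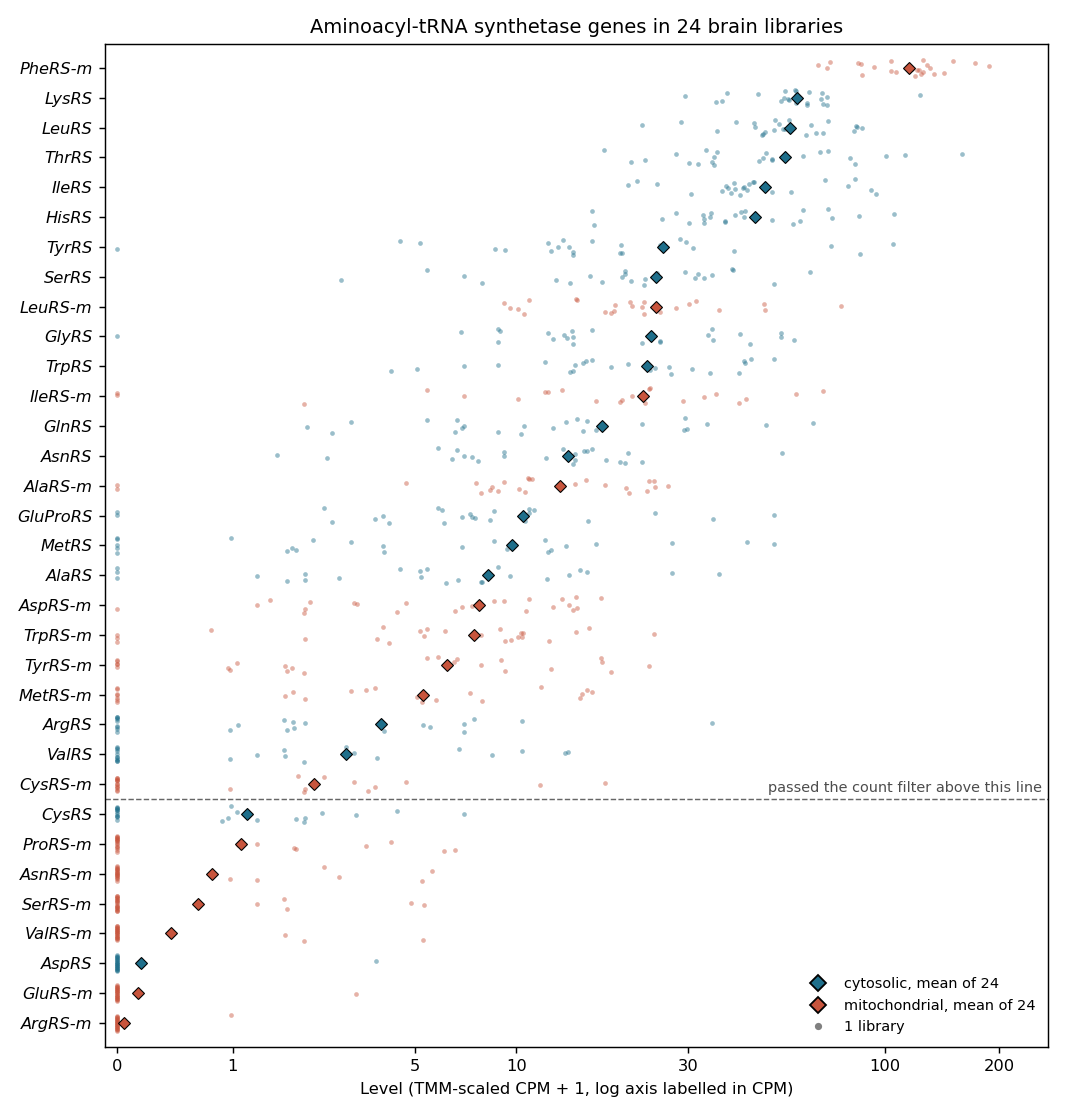
Level of the 33 synthetase genes, with each small point 1 of 24 libraries and each diamond the mean, on a log axis of TMM-scaled CPM + 1 labelled in CPM (TMM is a scaling of library sizes). Cytosolic genes are blue and mitochondrial genes red, the 25 genes above the dashed line passed the count filter, and *PheRS-m* at 116 CPM stands apart at the top.

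The 8 genes that did not pass the filter of at least 5 counts in at least 3 libraries were at or near 0. *CysRS* (24 counts in all 24 libraries together, 1.18 CPM) and *AspRS* (4 counts, in male 1 h 1 alone, 0.156 CPM) are cytosolic. The mitochondrial ones were *ProRS-m* (24 counts, 1.11 CPM), *AsnRS-m* (19 counts, 0.768 CPM), *SerRS-m* (14 counts, 0.624 CPM), *ValRS-m* (6 counts, 0.379 CPM), *GluRS-m* (3 counts, 0.133 CPM) and *ArgRS-m* (1 count, 0.0409 CPM). Of these 8, 7 have exons of an opposite-strand gene over part of their last 300 bases in a later genome annotation, against 6 of the 25 tested members, while the share over all genes was 20.8% of those not tested and 25.1% of those tested. The overlap was small for some of the 7, at 1% for *CysRS*, 10% for *ArgRS-m* and 12.3% for *AsnRS-m*. The last 300 bases of *AspRS* lie wholly under *asRNA:CR45141*, and those of *CysRS-m* are covered by 50.8% by *CG13016* and those of *SerRS-m* by 41.8% by *Nagk*. Coverage was 18% for *TyrRS-m* by *CG3594*, 17% for *IleRS-m* by *IntS9* and 8.67% for *GlnRS* by *CG11858*. The strand setting of the counting is not stated, so whether reads from such stretches were told apart is not known. For *AspRS*, overlapped in full, the low count may therefore not measure how much of the transcript was present, which was not tested.

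For 12 amino acids both a cytosolic and a mitochondrial gene are listed under matching symbols. The cytosolic gene had the higher mean in 9 pairs: *AsnRS* and *SerRS* exceeded their partners in 24 of 24 libraries, *TrpRS* in 22, *IleRS* and *LeuRS* in 21, *TyrRS* in 20, *ArgRS* in 15, *MetRS* in 13 and *ValRS* in 11, where 12 libraries were tied. The mitochondrial gene was the higher for alanine, at 13.3 CPM for *AlaRS-m* against 8.27 CPM for *AlaRS* (17 of 24 libraries), for aspartate, at 7.78 CPM for *AspRS-m* against 0.156 CPM for *AspRS* (23 of 24), and for cysteine, at 2.25 CPM for *CysRS-m* against 1.18 CPM for *CysRS* (8 of 24, with 11 tied). Of these, *AspRS* has the 3′ end that is overlapped in full. Glycine and lysine have no separate mitochondrial symbol, and in human cells a single gene serves both compartments for each of them.

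The cytosolic set as a whole summed to a mean of 428 CPM and the mitochondrial set to 208 CPM. The sets are split by symbol. Genes of the 5 amino acids with a cytosolic symbol alone count as cytosolic, whether or not they also serve mitochondria. In males the cytosolic sum was 502 ± 180 CPM (SD, n = 3) in controls, 564 ± 340 CPM at 1 h, 367 ± 97.0 CPM at 2 h and 410.1 ± 72.0 CPM at 4 h post-TBI. In females it was 437 ± 156 CPM in controls, 339.9 ± 25 CPM at 1 h, 392 ± 117 CPM at 2 h and 409 ± 77.1 CPM at 4 h. These groups overlapped throughout, and the mean was 379.8 CPM in males at 1 h and 405 CPM in male controls when male control 2 and male 1 h 2 were left out. The 3 female controls stood at 343, 617 and 352 CPM, with a mean of 347 CPM without female control 2. The mitochondrial sum moved less, between 188 ± 74.6 CPM in males at 1 h and 226 ± 5.56 CPM in females at 4 h. The ratio of the cytosolic to the mitochondrial sum ran from 1.37 in female 2 h 3 to 6.0 in male 1 h 2, and was 3.61 in female control 2, 3.06 in male control 1 and 2.75 in male control 2.

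The cytosolic sum followed library depth. In each of the 8 groups the 3 libraries had the same order in cytosolic CPM as in total counts, as in males at 1 h, where the sum was 259 CPM in the library of 290304 counts, 502 CPM in the middle one and 930.3 CPM in that of 1880528 counts. The deepest library was replicate 2 in every group except males at 4 h, where it was replicate 3. Depth and replicate number thus largely went together, and their parts cannot be told apart. The mitochondrial sum was in full order of depth in 2 of 8 groups. Without TMM factors the order held in full in 5 of 8 groups for the cytosolic and 1 of 8 for the mitochondrial sum. Gene by gene, the deepest library of a group lay above the shallowest in a median of 6 groups for the 16 tested cytosolic genes, 5 groups for the 9 mitochondrial genes and 4 groups for all tested genes. *AlaRS*, *TrpRS* and *TyrRS* did so in all 8 groups, which is 18.75% of the cytosolic genes against 8.29% of all tested genes. The part of this in the differences between groups was not tested.

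**Figure D2:**
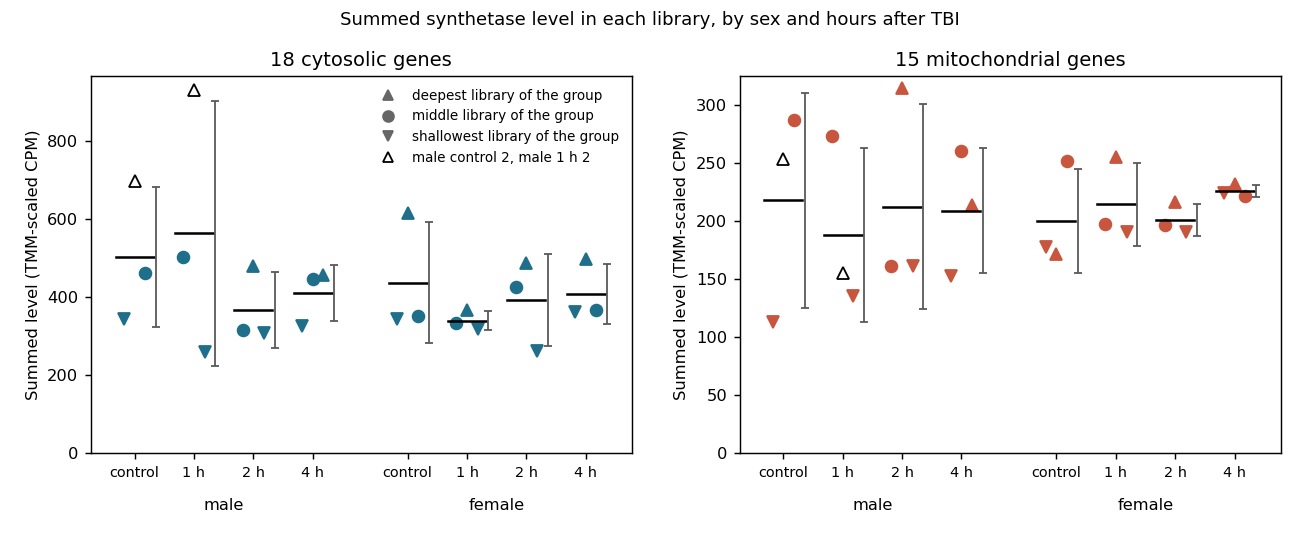
Summed TMM-scaled CPM of the 18 cytosolic (left) and 15 mitochondrial genes (right) in each library, by sex and hours after TBI, with symbols for the deepest, middle and shallowest library of a group, a line for the mean, a bar for the SD (n = 3) and open symbols for male control 2 and male 1 h 2. In the left panel the deepest library is the highest and the shallowest the lowest in all 8 groups.

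Each injured group was compared with the control of the same sex by edgeR's quasi-likelihood test in 1 fit of all 24 libraries. Genes with |log2 FC| over 1 whose p before adjustment was under 0.05 were called, following the rule in the study's legends. Of the 7865 genes tested, 0 had an adjusted p under 0.05 in any comparison, and the smallest adjusted p of a synthetase gene was 0.639, so every call below is an unadjusted one and is read against the share of all genes called in the same comparison. The comparisons within a sex share their 3 control libraries. A fitted log2 FC of a gene whose group holds 0 to 3 counts depends on the fit's prior count, and for those genes a ratio of counts with its 95% exact interval, or a lower bound that sets the empty group to 3 counts in all, is given, both covering counting error only.

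**Figure D3:**
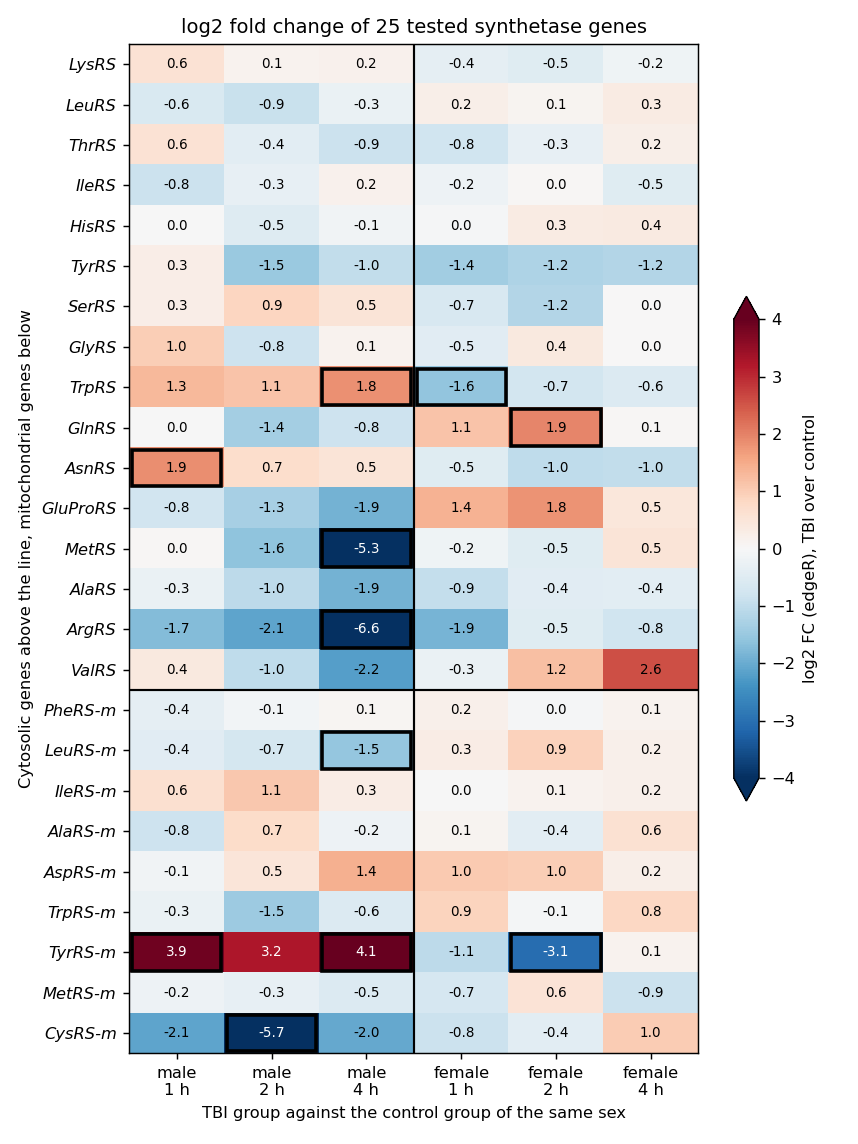
log2 FC of the 25 tested synthetase genes (16 cytosolic above the line, 9 mitochondrial below) in the 6 comparisons of an injured group with the control of its sex, with colour clipped at 4 in either direction and black frames around called genes. *TyrRS-m* is framed in males at 1 h (3.88) and 4 h (4.08) and in females at 2 h (−3.06), and *TrpRS* in males at 4 h (1.82) and females at 1 h (−1.59).

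At 1 h post-TBI in males, 2 of 25 synthetase genes were called, both higher, against 4.64% of all genes (2% higher and 2.64% lower). *TyrRS-m*, the mitochondrial tyrosine enzyme, had 7, 32 and 0 counts in the injured libraries (6.56, 17.5 and 0 CPM), against 0, 0 and 1 in controls (0, 0 and 1.05 CPM). That is a ratio of 28.2 (interval 4.77 to 1143, edgeR adjusted p = 0.999), and the third injured library, at 0 counts, overlapped the controls. *AsnRS*, which charges asparagine, stood at 20.6, 53.5 and 9.24 CPM in injured males against 7.04, 1.61 and 14.7 CPM in male controls (log2 FC 1.85 ± 0.88, SE, adjusted p = 1). Of the injured counts, 82.1% for *TyrRS-m* and 79.7% for *AsnRS* lay in male 1 h 2.

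Without male 1 h 2 the log2 FC at 1 h was 2.74 for *TyrRS-m* and 0.97 for *AsnRS*, and without male control 2 it was 3.15 and 1.26, and all of these calls were lost. The *AsnRS* call was lost on leaving out 12 of the 24 libraries in turn, including male control 1 (1.79) and female and other male libraries that moved the value to 1.84 to 1.85 and changed only the estimate of spread. *TrpRS*, the tryptophan enzyme, had groups that did not overlap, at 20.6, 42.6 and 15.4 CPM in injured males against 7.04, 8.88 and 14.7 CPM in controls (log2 FC 1.30 ± 0.72), and was not called. Non-overlapping groups were seen for 1 of 25 synthetase genes and 3.85% of all genes. Among genes with a negative log2 FC, *IleRS* had the lowest p, at 20.6, 43.7 and 24.6 CPM in injured males against 42.2, 37.9 and 79.8 CPM in controls (log2 FC −0.85 ± 0.54, not called). Without male control 2 and male 1 h 2 its log2 FC was −1.53 and that of *LeuRS* −1.24, and both were then called lower. With limma voom the calls at 1 h changed in gene and direction, since *TyrRS-m* (1.32) and *AsnRS* (0.99) were lost and *IleRS* (−1.45) and *LeuRS* (−1.38) were called lower.

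At 2 h post-TBI in males, 1 of 25 synthetase genes was called against 7.26% of all genes (1.84% higher and 5.42% lower). *CysRS-m*, the mitochondrial cysteine enzyme, had 0 counts in all 3 injured libraries, against 0, 22 and 3 in controls (0, 17.8 and 3.15 CPM). It was at least 8.39-fold lower (adjusted p = 0.639), with 88% of the control counts in male control 2, and 1 control library was at 0 as well. Its fitted log2 FC was −5.67 ± 2.29 and −5.64 without male 2 h 2, where the call was lost. It fell under the filter, and could not be tested, without male control 2, male 1 h 1 or female 4 h 2. Among positive values *TyrRS-m* had the lowest p, with 0, 12 and 3 counts in injured males (0, 9.07 and 6.73 CPM) against 0, 0 and 1 in controls. Its ratio was 14.9 (interval 2.29 to 628), its libraries overlapped and it was not called (adjusted p = 0.642).

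The cytosolic genes had a median log2 FC of −0.86 in males at 2 h, with 4 of 16 positive, against −0.02 over all genes tested, 48.8% of them positive. The libraries of *LeuRS* did not overlap, at 45.0, 28.7 and 40.4 CPM in injured males against 84.5, 45.2 and 84.0 CPM in controls (log2 FC −0.89 ± 0.47), as for 1 of 25 synthetase genes and 9.74% of all genes. *LeuRS* was not called with all libraries and was called lower without male control 2 (−1.16). Without male control 2 and male 1 h 2 the cytosolic median turned to 0.07, with 9 of 16 positive, so the shift of the set rested on these libraries while *LeuRS* was lower without them as well (−1.15).

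Males at 4 h post-TBI had the most calls, 5 of 25 synthetase genes against 3.92% of all genes (1.36% higher and 2.56% lower). The paper lists aminoacyl-tRNA synthetase among the keywords enriched in males at 4 h. It used the same libraries, so this count is not an independent observation. *MetRS*, which charges methionine for initiation and elongation in the cytosol, had 0, 0 and 1 counts in injured males (0, 0 and 0.982 CPM), against 0, 63 and 16 in controls (0, 50.9 and 16.8 CPM). The ratio was 0.0147 (interval 0.000367 to 0.0843, adjusted p = 0.962), and the groups overlapped because male control 1, the shallowest library, had 0 counts. *ArgRS*, the arginine enzyme, had 0 counts in each injured library, against 1, 43 and 2 in controls (7.04, 34.7 and 2.10 CPM), at least 13.2-fold lower and with no overlap (adjusted p = 0.962). *LeuRS-m*, which charges leucine in mitochondria, stood at 10.9, 14.8 and 14.7 CPM in injured males against 21.1, 76.7 and 18.9 CPM in controls, again without overlap (log2 FC −1.54 ± 0.71, adjusted p = 0.962).

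The other calls at 4 h in males were higher. *TrpRS* stood at 16.4, 50.7 and 44.2 CPM in injured males against 7.04, 8.88 and 14.7 CPM in controls, so that all 3 injured libraries exceeded all 3 controls (log2 FC 1.82 ± 0.73, adjusted p = 0.962). *TyrRS-m* had 1, 14 and 6 counts (5.45, 17.3 and 5.89 CPM) against 0, 0 and 1 in controls (0, 0 and 1.05 CPM), a ratio of 24.4 (interval 3.92 to 1008, adjusted p = 0.962) without overlap. Groups did not overlap for 4 of 25 synthetase genes and 6.79% of all genes. The cytosolic median was −0.55 and the mitochondrial median −0.20, against −0.05 over all genes. Without male control 2 and male 1 h 2 they were −0.08 and 0.22, against 0.01 over all genes.

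Male control 2 held 79.7% of the control counts of *MetRS*, 93.5% of those of *ArgRS* and 81.9% of those of *LeuRS-m*. Without it, 1 of the 5 genes at 4 h was called, *MetRS* (−4.08, against a fitted −5.31 ± 1.62 with all libraries), while the calls of *ArgRS* (−4.63 against −6.62 ± 2.22), *TrpRS* (1.65), *TyrRS-m* (3.34) and *LeuRS-m* (−0.50) were lost. Leaving out male 4 h 2 also ended the calls of *TrpRS* (1.60), *TyrRS-m* (3.33) and *LeuRS-m* (−1.52), and that of *LeuRS-m* was lost without male 4 h 1 (−1.45) or male 4 h 3 (−1.60). *MetRS* kept its call in each of the 33 other settings, which comprise each library left out in turn, other tools, filters and normalizations. Most of these settings leave both of its groups whole. Without male control 2 its call rested on control counts of 0 and 16 against 0, 0 and 1.

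**Figure D4:**
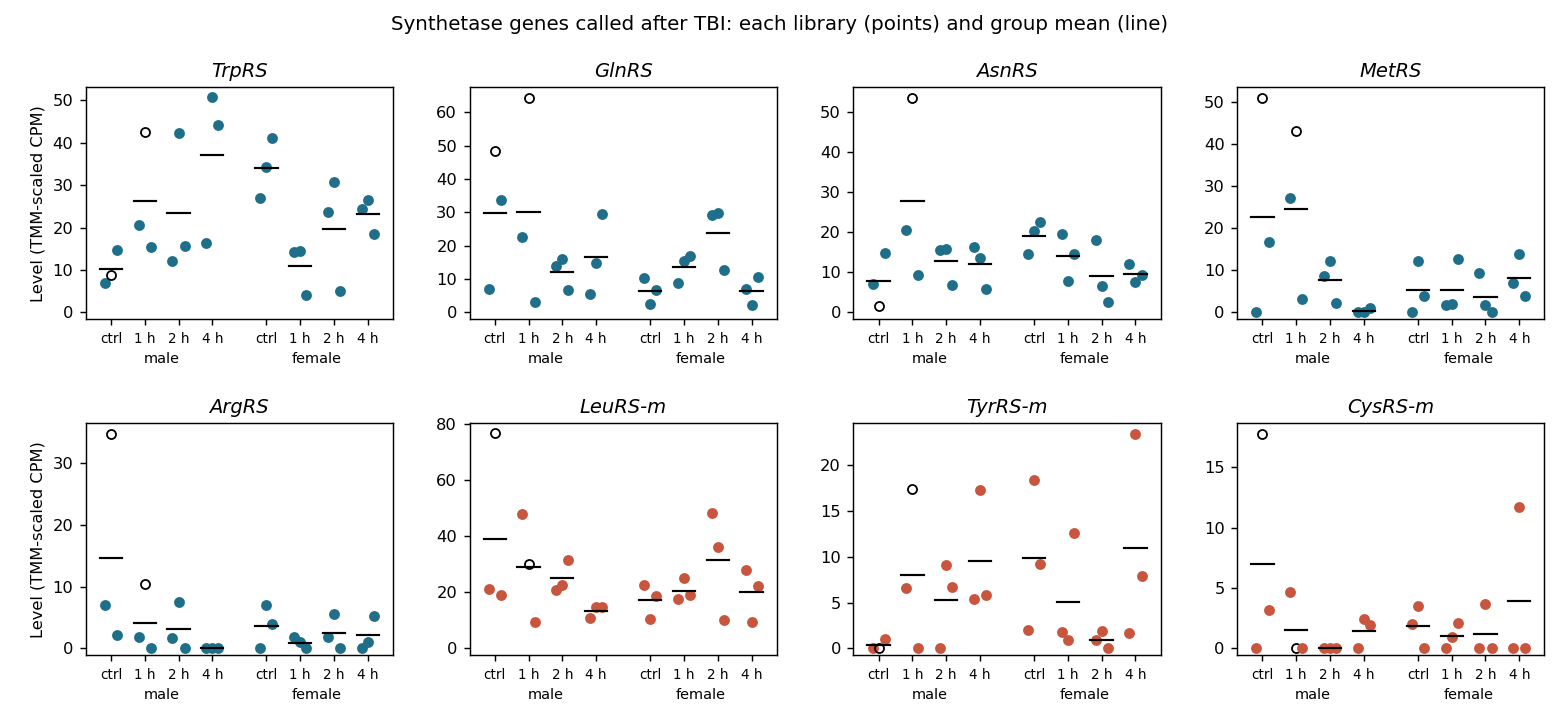
TMM-scaled CPM of the 8 synthetase genes called in an injury comparison, in each of the 3 libraries of a group (points) with the group mean (line), for male and female control, 1, 2 and 4 h groups, with open symbols for male control 2 and male 1 h 2. The open symbol in male controls is the highest of that group for *MetRS* (50.9 CPM), *ArgRS* (34.7 CPM), *LeuRS-m* (76.7 CPM) and *CysRS-m* (17.8 CPM).

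Female brains at 1 h post-TBI had 1 called synthetase gene of 25, against 1.44% of all genes (0.381% higher and 1.06% lower). *TrpRS* stood at 14.2, 14.5 and 4.19 CPM in injured females against 26.9, 34.2 and 41.0 CPM in controls, with every injured library under every control (log2 FC −1.59 ± 0.70, adjusted p = 1). The call was lost without female control 2 (−1.59), female control 3 (−1.44) or female 1 h 3 (−1.24). Among positive values *GlnRS*, the glutamine enzyme, had the lowest p, at 8.88, 15.5 and 16.8 CPM in injured females against 10.3, 2.63 and 6.61 CPM in controls (log2 FC 1.13 ± 0.90, not called). Groups did not overlap for 3 of 25 synthetase genes and 10.4% of all genes. Besides *TrpRS* they were *GluProRS*, at 16, 10.6 and 8.38 CPM against 4.13, 6.14 and 2.65 CPM in controls (1.38 ± 1.12), and *LysRS*, at 62.1, 58.0 and 35.6 CPM against 70.3, 62.3 and 68.8 CPM (−0.36 ± 0.44), neither of them called. The cytosolic median was −0.41 with 3 of 16 genes positive, against −0.06 over all genes, 46.1% of them positive. Without female control 2 it was −0.03, with 8 of 16 positive, so the shift of the set rested on that library.

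In female brains at 2 h, 2 of 25 synthetase genes were called against 2.16% of all genes (0.559% higher and 1.6% lower). *GlnRS* stood at 29.3, 29.7 and 12.7 CPM in injured females against 10.3, 2.63 and 6.61 CPM in controls, all 3 injured libraries being higher (log2 FC 1.94 ± 0.89, adjusted p = 1). *TyrRS-m* had 1, 2 and 0 counts (0.944, 1.86 and 0 CPM) against 1, 21 and 7 in controls (2.07, 18.4 and 9.26 CPM), a ratio of 0.0973 (interval 0.0190 to 0.314, adjusted p = 1), again without overlap. The call of *GlnRS* was lost without female control 2 (1.52), female control 3 (2.00), female 2 h 1 (1.78) or female 2 h 2 (1.77). That of *TyrRS-m*, with a fitted log2 FC of −3.06 ± 1.46, was lost on leaving out 12 of the 24 libraries in turn, among them female control 2 (−2.27), which held 72.4% of its control counts. *LysRS* was the third gene without overlap, at 36.8, 52.9 and 55.8 CPM against 70.3, 62.3 and 68.8 CPM in controls (−0.47 ± 0.44, not called), beside 5.33% of all genes. The cytosolic median was −0.38 with 7 of 16 genes positive, and turned to 0.30 with 10 of 16 positive without female control 2.

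Female brains at 4 h had 0 called synthetase genes of 25, against 1.42% of all genes (0.648% higher and 0.776% lower), and 0 at an unadjusted p under 0.05 at any fold by edgeR. Leaving out each library in turn, DESeq2 and limma voom gave 0 as well. *ValRS*, the valine enzyme, had the lowest p among positive values, with 1, 8 and 1 counts in injured females (1.74, 8.51 and 1.32 CPM) against 1, 0 and 0 in controls (2.07, 0 and 0 CPM). The ratio was 10.5 (interval 1.49 to 454). *TyrRS* had the lowest p among negative values, at 8.68, 30.9 and 13.2 CPM against 14.5, 86.0 and 19.8 CPM in controls (log2 FC −1.19 ± 0.96), with overlapping groups. *AsnRS*, at 12.2, 7.45 and 9.22 CPM against 14.5, 20.2 and 22.5 CPM (−0.99 ± 0.84), and *TrpRS*, at 24.3, 26.6 and 18.4 CPM against 26.9, 34.2 and 41.0 CPM (−0.56 ± 0.67), did not overlap, as 6.1% of all genes. Of 9 mitochondrial genes 8 had a positive log2 FC, with a median of 0.21 against 0.02 over all genes, 51.7% of them positive. Without female control 2 the mitochondrial median was 0.21 with 6 of 9 positive.

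Averaged over both sexes, 0 of 25 synthetase genes were called at 1 h post-TBI, against 3.34% of all genes (0.954% higher and 2.39% lower). None had an unadjusted p under 0.05 by edgeR, and DESeq2 and limma voom also called 0. The lowest p in each direction belonged to *TyrRS-m* (log2 FC 1.41 ± 1.02) and *ArgRS* (−1.79 ± 1.14), and without male 1 h 2 *ArgRS* was called lower (−2.68). At 2 h, *CysRS-m* was called lower (−3.04 ± 1.42, adjusted p = 0.831), beside 5.15% of all genes (1.04% higher and 4.11% lower), with 0, 4 and 0 counts in injured females against 1, 4 and 0 in female controls. Its call was lost without female control 1 (−3.03) or 2 (−2.56), female 2 h 1 (−2.75) or 3 (−2.87), or any of the 3 male 2 h libraries (−3.06 to −3.03), and with DESeq2 (−2.76) or limma voom (−1.31), and it could not be tested without male control 2, male 1 h 1 or female 4 h 2. *TyrRS*, with a log2 FC of −1.36 ± 0.68 that was not called, was called lower at 2 h in 10 other settings (−2.16 to −1.33), among them DESeq2 (−1.45) and limma voom (−1.75). *AspRS-m*, the mitochondrial aspartate enzyme, had the lowest p among positive values at 2 h (0.73 ± 0.87), at 8.65, 1.51 and 13.5 CPM in injured males against 14.1, 3.23 and 3.15 CPM in male controls, and at 0, 14.9 and 12.7 CPM in injured females against 2.07, 4.39 and 6.61 CPM in female controls.

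At 4 h, *ArgRS* (−3.71 ± 1.34) and *MetRS* (−2.40 ± 1.01) were called lower over both sexes (adjusted p = 1.00 each), 2 of 25 against 2.71% of all genes (0.839% higher and 1.87% lower). In injured females at 4 h *ArgRS* had 0, 1 and 4 counts (0, 1.06 and 5.27 CPM) against 0, 8 and 3 in controls (0, 7.02 and 3.97 CPM), and *MetRS* stood at 6.95, 13.8 and 3.95 CPM against 0, 12.3 and 3.97 CPM, with overlap for both. The averaged call was thus carried by the males. Without male control 2 neither gene was called (*ArgRS* −2.71, *MetRS* −1.78), and *MetRS* was not called without female control 2 (−1.73) or male 4 h 2 (−2.06). *TyrRS-m* had the lowest p among positive values (2.11 ± 1.04, not called).

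The difference between the sexes in the response was tested as the male minus the female log2 FC. At 1 h, 2 of 25 synthetase genes were called against 3.04% of all genes (1.64% higher and 1.4% lower). *TrpRS* differed by 2.89 ± 1.00 (adjusted p = 1.00), with male log2 FC 1.30 and female log2 FC −1.59, each with groups that did not overlap. Its call held on leaving out each library in turn and was lost when male control 2 and male 1 h 2 were both left out (2.12). *TyrRS-m* differed by 4.93 ± 2.13, with 1, 1 and 6 counts in injured females against 1, 21 and 7 in female controls (1.78, 0.967 and 12.6 CPM against 2.07, 18.4 and 9.26 CPM). Its call was lost without male control 2 (4.21), male 1 h 2 (3.80), female control 2 (4.14), female 1 h 1 (4.54) or female 1 h 2 (4.38). Not called with all libraries, *LeuRS* was called without male control 2 and male 1 h 2 (−1.50) and *ThrRS* without male control 2 (1.83).

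At 2 h the called interactions were *TyrRS-m* and *GlnRS*, 2 of 25 against 3.65% of all genes (1.51% higher and 2.14% lower). *TyrRS-m* differed by 6.28 ± 2.23 (adjusted p = 1.00), and its call held without each library in turn and was lost with limma voom (2.39). *GlnRS* differed by −3.30 ± 1.23 (adjusted p = 1.00) and kept its call in all 33 other settings: it was higher in injured females, while injured males stood at 13.8, 15.9 and 6.73 CPM against 7.04, 48.4 and 33.6 CPM in male controls (log2 FC −1.35 ± 0.85, not called). *GluProRS* was near this, with a difference of −3.13 ± 1.55 that was not called with all libraries and was called in 10 of the other settings, between −3.61 and −3.09.

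At 4 h, *MetRS* (−5.81 ± 2.02), *TrpRS* (2.38 ± 0.99) and *ArgRS* (−5.82 ± 2.62) were called, 3 of 25 against 3.05% of all genes, of which 1.42% were higher and 1.63% lower (adjusted p = 1.00 each). *MetRS* kept its call in all 33 other settings, with a female log2 FC of 0.50. The call of *TrpRS* was lost without male 4 h 2 (2.14), and that of *ArgRS* without male control 2 (−3.84), male 4 h 2 (−5.79), male 4 h 3 (−5.81), female control 1 (−5.34) or female 4 h 3 (−4.23). *TrpRS* had the same sign in the interaction at 2 h (1.87 ± 0.98) without being called. Its male controls were the lowest and its female controls the highest of the 4 groups of each sex in the mean, at 10.2 ± 4.00 and 34.0 ± 7.07 CPM (SD, n = 3), and the 3 interactions share these controls.

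Over the 4 groups of each sex, 1 of 25 synthetase genes was called between male and female brains, against 3.03% of all genes (1.37% higher and 1.65% lower). *GlnRS* had a median of 15.4 CPM in 12 male libraries (3.08 to 64.4 CPM) and 10.4 CPM in 12 female libraries (2.13 to 29.7 CPM), with a log2 FC of 1.00 ± 0.43 (adjusted p = 1.00). The call sat at the threshold of 1 and was lost on leaving out 10 of the 24 libraries in turn, with values from 0.72 (without male 1 h 2) to 0.99, and at 0.60 without male control 2 and male 1 h 2. *ValRS* was not called with all libraries and was called higher in males in some other settings. Its values there ran from 1.17 with limma voom to 2.51 without female 2 h 1. *GlyRS*, the glycine enzyme, had the lowest p among lower genes (−0.47 ± 0.40, not called), with a median of 14 CPM in males (0 to 52.9 CPM) and 23.8 CPM in females (8.88 to 57.6 CPM). Of 16 cytosolic genes 13 were higher in males, with a median of 0.33 against −0.04 over all genes, 45.9% of them positive, and without male control 2 and male 1 h 2 this was 7 of 16 with a median of −0.06.

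The groups of the 8 called genes that took part in no call varied widely. *AsnRS* in males stood at 15.6, 15.9 and 6.73 CPM at 2 h and 16.4, 13.6 and 5.89 CPM at 4 h, and in females at 19.5, 7.74 and 14.7 CPM at 1 h and 17.9, 6.5 and 2.54 CPM at 2 h. *TrpRS* stood at 12.1, 42.3 and 15.7 CPM in males at 2 h (log2 FC 1.14 ± 0.72) and 23.6, 30.6 and 5.08 CPM in females at 2 h (−0.73 ± 0.67), each overlapping its controls. *GlnRS* stood at 22.5, 64.4 and 3.08 CPM in males at 1 h, 5.45, 14.8 and 29.4 CPM in males at 4 h and 6.95, 2.13 and 10.5 CPM in females at 4 h. The high *GlnRS* value is again male 1 h 2, and females at 4 h were back in the range of their controls.

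*MetRS* stood at 27.2, 43.1 and 3.08 CPM in males at 1 h and 8.65, 12.1 and 2.24 CPM at 2 h, and in females at 1.78, 1.93 and 12.6 CPM at 1 h and 9.44, 1.86 and 0 CPM at 2 h. *ArgRS* had 2, 19 and 0 counts in males at 1 h and 1, 10 and 0 at 2 h, and in females 1, 1 and 0 at 1 h and 2, 6 and 0 at 2 h. Both genes thus had counts in other injured groups, and the male 4 h group was the lowest of the 8 for each. *LeuRS-m* stood at 47.8, 30.01 and 9.24 CPM in males at 1 h and 20.8, 22.7 and 31.4 CPM at 2 h. In females *LeuRS-m* stood at 22.7, 10.5 and 18.5 CPM in controls, 17.8, 25.1 and 18.9 CPM at 1 h, 48.1, 36.2 and 10.2 CPM at 2 h and 27.8, 9.58 and 22.4 CPM at 4 h, with overlap throughout. The remaining *CysRS-m* counts were 5, 0 and 0 in males at 1 h, 0, 2 and 2 in males at 4 h, 0, 1 and 1 in females at 1 h and 0, 11 and 0 in females at 4 h. *TyrRS-m* had 1, 22 and 6 counts in females at 4 h, close to the 1, 21 and 7 of female controls.

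The most abundant cytosolic genes were called in no comparison with all libraries. *LysRS* stood in males at 70.4, 58.9 and 29.4 CPM in controls, 58.1, 124 and 46.2 CPM at 1 h, 38.0, 68.0 and 62.8 CPM at 2 h and 54.5, 58.1 and 57.9 CPM at 4 h, and in females at 4 h at 67.7, 55.3 and 54.0 CPM. *LeuRS* in females stood at 62.0, 47.4 and 47.6 CPM in controls, 65.7, 68.6 and 48.2 CPM at 1 h, 35.9, 82.6 and 50.8 CPM at 2 h and 53.8, 54.3 and 86.9 CPM at 4 h, and in males at 22.5, 63.8 and 52.4 CPM at 1 h and 70.9, 55.7 and 51.0 CPM at 4 h. Both were steady between replicates, with a median CV of 24.3% for *LysRS* and 25.6% for *LeuRS*, against 36.6% and 38.3% for the genes nearest in level.

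*ThrRS* varied more. Its males stood at 35.2, 101 and 60.9 CPM in controls, 113, 159 and 27.7 CPM at 1 h, 48.4, 67.2 and 35.9 CPM at 2 h and 70.9, 33.4 and 17.7 CPM at 4 h. Its females stood at 35.1, 83.3 and 31.7 CPM in controls, 30.2, 34.8 and 21.0 CPM at 1 h, 46.3, 50.1 and 22.8 CPM at 2 h and 50.4, 80.9 and 47.4 CPM at 4 h. The log2 FC over the 6 injury comparisons lay between −0.86 and 0.58, with a median SE of 0.58. It was called lower in males at 4 h without male 4 h 1 (−1.42). *MetRS* and *TyrRS* were more variable between replicates than genes of their level, with a median CV of 114% against 76.4% and of 91.0% against 52.4%.

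Across the 6 injury comparisons *AlaRS*, for alanine, and *ArgRS* had a negative log2 FC in all 6, from −1.89 to −0.25 and from −6.62 to −0.49. *AspRS-m* and *IleRS-m* were positive in 5 of 6, with median SEs of 1.23 and 1.21. *IleRS-m* turned on single libraries, at 58.1, 0 and 12.3 CPM in males at 1 h and 12.1, 68.7 and 13.5 CPM at 2 h against 7.04, 0 and 35.7 CPM in male controls. It was called higher at both times when male control 3 was left out (4.30 and 4.75). The sign counts are a description, since the 3 comparisons of a sex share their controls. The share of all genes with such runs of sign was not counted. *TyrRS-m* was called in 3 of these 6 comparisons and *TrpRS* in 2, each in both directions, and *AsnRS*, *GlnRS*, *CysRS-m*, *LeuRS-m*, *MetRS* and *ArgRS* in 1 each. How many of all genes were called in at least 1 of the 6 was not counted, so these calls are read only within each comparison.

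Proteins that work with the synthetases were read from lists chosen with the same earlier results in view. The cytosolic phenylalanine subunits and *Slimp*, a paralogue of the mitochondrial serine enzyme that does not charge tRNA, were all 3 tested. At 2 h post-TBI in males *alpha-PheRS* had 0, 1 and 0 counts against 0, 31 and 7 in controls and *Slimp* had 1, 0 and 0 against 0, 31 and 5. Both were called lower, 2 of 3 beside 7.26% of all genes, and neither was without male control 2 and male 1 h 2. *alpha-PheRS* was also called lower in males at 4 h, with 0, 0 and 0 counts (1 of 3 beside 3.92%), and again not without that pair. *Slimp* was called lower in females at 2 h, with 0, 0 and 0 counts against 0, 4 and 18 in controls (1 of 3 beside 2.16%), and also without female control 2. Control libraries at 0 overlapped the injured ones in each case. *beta-PheRS*, whose product pairs with that of *alpha-PheRS*, had counts of 1, 0 and 3 in males at 2 h against 0, 31 and 5 in controls and was not called.

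Of 9 translation elongation factor genes tested, which bring charged tRNAs to the ribosome or move it along, 1 was called in males at 1 h (higher, beside 4.64% of all genes), 2 at 2 h (beside 7.26%) and 2 at 4 h (beside 3.92%), 1 higher and 1 lower each, and in females 1 at 2 h (lower, beside 2.16%). In males 0 of the 9 were called at each time without male control 2 and male 1 h 2, and in females at 2 h 0 without female control 2. *ico*, the mitochondrial elongation factor G, had 12, 14 and 1 counts in males at 1 h, 0, 17 and 0 at 2 h and 0, 9 and 10 at 4 h, against 0, 0 and 0 in male controls, and had 0, 0 and 0 counts in females at 2 h against 0, 10 and 0 in controls. *Ef1alpha48D*, which delivers charged tRNA in the cytosol, stood at 901, 733 and 637 CPM in males at 2 h against 775, 2993 and 1208 CPM in controls (log2 FC −1.14 ± 0.47) and had a log2 FC of −1.11 ± 0.47 at 4 h. The highest control value was again that of male control 2, and without it and male 1 h 2 the log2 FC was −0.39 at 2 h and −0.36 at 4 h. The 3 scaffold genes of the multisynthetase complex (*AIMP1*, *AIMP2* and *AIMP3*) and *GatA*, the tested one of 3 genes of the amidotransferase that makes mitochondrial glutaminyl-tRNA, had 0 calls in the 6 injury comparisons. Among 8 tested genes that respond to uncharged tRNA and amino acid shortage, 0 were called after injury. In males at 1 h all 8 had a positive log2 FC (median 0.64), as had 50.9% of all genes, led in p by *Thor*, which encodes a repressor of translation initiation, at 201, 400.5 and 98.6 CPM in injured males against 91.5, 123 and 155 CPM in controls (0.91 ± 0.45, not called). The highest of these is male 1 h 2, and without it and male control 2 the log2 FC of *Thor* was 0.25 and 6 of the 8 genes were positive, with a median of 0.26. *Gcn2*, the kinase that senses uncharged tRNA, had 0 counts in every group.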

How the data were processed

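The samples were brains of *tau*-KO males and females, uninjured or 1, 2 or 4 h after TBI, with 3 libraries a group. The count values are reads per gene as deposited by the authors, who aligned 50 bp reads to dm3 with STAR 2.4 after CASAVA 1.8.2. Annotation version and strand setting are not given in the sources used here. The deposited log2 fold changes and log2 average CPM, likelihood ratio scores, p-values and FDR of the authors' edgeR 3.22.3 comparisons were not used. Reads naming no gene stayed out of library sizes (12.2 to 32.2% not unique, 6.06 to 8.71% ambiguous and 1.74 to 7.19% in no feature per library).

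Genes with at least 5 counts in at least 3 libraries were fitted in R 4.3.3 with edgeR 4.0.16 (TMM factors, robust quasi-likelihood test, all 8 groups), with Benjamini-Hochberg adjustment over the 7865 tested genes. The SE is |log2 FC| divided by the square root of F. CPM are TMM-scaled, and their precision is set by counts per library (117416 to 1880528). Members and lists were chosen with earlier results of these data known. Every member was named, with values in each library for those called, the most abundant, and those of lowest p in each direction of a comparison. On data simulated for males at 2 h (7448 genes), 68% of 4-fold and 99% of 16-fold changes were called, and 4.97% of unchanged genes. An adjusted p under 0.05 was reached by 23% of the 4-fold and 77% of the 16-fold changes, and by 0.0828% of unchanged genes. The changed genes were drawn above a minimum mean level and were all raised. Counts were drawn around 1 mean level per gene, so libraries that stand apart, such as male control 2, were not simulated. The simulated shares therefore do not cover the lowest genes, such as *CysRS-m* (2.25 CPM), decreases or libraries of that kind. Labels do not say whether brains came from separate cultures of flies, so p-values measure the spread between these libraries. Exon overlaps were read from a later annotation by symbol. Alternatives used DESeq2 1.42.0 and limma 3.58.1. Figures used matplotlib 3.10.9 in Python 3.11.15.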

Additional observations from a re-analysis of the deposited data

Results flagged for a closer look

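The interaction test, as male minus female log2 FC, called 5 genes at an unadjusted p under 0.05. The 7 results were 2.89 for *TrpRS* and 4.93 for *TyrRS-m* at 1 h, 6.28 for *TyrRS-m* and −3.30 for *GlnRS* at 2 h, and −5.81 for *MetRS*, 2.38 for *TrpRS* and −5.82 for *ArgRS* at 4 h. Each passed an unadjusted test by edgeR and none an adjusted one. They are 2 of 25 synthetase genes at 1 h beside 3.04% of all genes, 2 at 2 h beside 3.65% and 3 at 4 h beside 3.05%. The call of *TyrRS-m* at 1 h was lost in 7 of 33 other settings and that of *ArgRS* at 4 h in 8 of 32. The *TrpRS* libraries at 1 h lay above the controls in 3 of 3 injured males and below them in 3 of 3 injured females. Groups did not overlap at 1 h for 3.85% of all genes in males and 10.4% in females. The *TrpRS* interaction at 1 h was not called without male control 2 and male 1 h 2 (2.12).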

How the results depend on the processing

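For 22 called results and at most 33 other settings each, 595 calls were kept, 118 were lost and 0 reversed, and *MetRS* at 4 h in males and the interactions of *GlnRS* at 2 h and *MetRS* at 4 h kept theirs throughout. Up to 24 of these settings leave out 1 library, often one outside the groups compared. Such a loss mainly changes the estimate of spread, so the tally does not measure how firm a call is. Depth limits the low genes, since 1 count is worth up to 7.04 CPM. Counts of called synthetase genes moved as follows, with the reported count in parentheses. Males at 1 h had 1 with no filter and 1 at |log2 FC| over 2 (2), and 2 other genes with limma voom. Males at 2 h had 2 with RLE size factors, 2 with limma voom, 0 with filterByExpr and 2 without the 3 shallowest libraries (1). Males at 4 h had 3 with limma voom, 3 at |log2 FC| over 2 and 1 without male control 2 and male 1 h 2 (5). Females had 0 with no filter and 0 at |log2 FC| over 2 at 1 h (1), and 1 with limma voom, 1 with no filter and 1 at |log2 FC| over 2 at 2 h (2). Over both sexes at 2 h there were 2 with no filter, 0 with filterByExpr, 0 without the pair that stands apart and 2 without the 3 shallowest (1), and at 4 h 0 with limma voom, 1 with filterByExpr and 0 without that pair (2). The interaction at 1 h had 1 without that pair and 4 without the 3 shallowest (2), and male against female 0 at |log2 FC| over 2, 0 without that pair and 2 without the 3 shallowest (1). Over all genes, without that pair, males had 171, 195 and 151 calls at the 3 times, against 365, 571 and 308. Females had 147, 190 and 149 calls there, against 113, 170 and 112. Over both sexes at 2 and 4 h there were 209 and 120, against 405 and 213. The interaction at 1 h had 191 against 239, and male against female 206 against 238. Counts over all genes for the other settings are not given here. The cause of these moves was not tested.

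Leaving out each library in turn gave 0 to 3, 0 to 3 and 1 to 5 calls in males at the 3 times, 0 to 1, 0 to 2 and 0 to 0 in females, 0 to 1, 0 to 2 and 0 to 3 over both sexes, 1 to 4, 2 to 5 and 1 to 5 for the interactions, and 0 to 2 between the sexes. Without Female_4h replicate 2, 3 of 264 gene levels by group moved by at least 1 SD, and none did under RLE size factors. Loss of 1 of 3 libraries cannot by itself move a group's mean by 1 SD. This measure therefore cannot show how far a level rests on a library of its own group. The cytosolic sum in males at 1 h was 381 CPM without male 1 h 2, against 564 CPM, and did not count as moved.

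With a replicate block there was 1 call in males at 1 h (2 without it), 1 in females at 2 h (2) and 0 between the sexes (1). The block ended the calls of *AsnRS* (1.73) in males at 1 h, *LeuRS-m* (−1.46) in males at 4 h, *TyrRS-m* (−2.75) in females at 2 h and *GlnRS* (0.95) between the sexes. Same-numbered libraries correlated between −0.415 and 0.607 over 84 pairs (median 0.181, against −0.119 for different numbers), and 15 of 24 correlated best with their own number. That is a hint from the data that same-numbered libraries deviate together, but the labels tie the numbers to no shared animal, batch or day and not every pair correlated, so they were left unpaired. Leaving libraries out of the related gene lists was chosen after seeing the data.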
